A study of Caenorhabditis elegans with 2 samples.

Results

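The sphingomyelin synthase genes of *Caenorhabditis elegans* are sms-1, sms-2 and sms-3, which make up 3 of the 19973 protein-coding genes on the nuclear chromosomes. The genes were chosen by name, after strong PROS-1 signal upstream of sms-2 had been seen in these data. For each gene, all peak summits in the annotated gene span and within 5000 bp upstream of its start were collected. The values at sms-2 that led to the choice are therefore given as a description, with no test.

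Sphingomyelin synthases move the phosphocholine head group of phosphatidylcholine onto ceramide, which gives sphingomyelin and diacylglycerol. Sphingomyelin is a lipid of the plasma membrane and of the secretory pathway, and worms build it on a branched-chain sphingoid base. RefSeq names the products of sms-1 and sms-2 phosphatidylcholine:ceramide cholinephosphotransferases, and one set of sms-3 products a putative enzyme of the same kind. PROS-1 is a homeodomain transcription factor, the worm counterpart of Prospero in flies and PROX1 in vertebrates.

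Binding of eGFP-tagged PROS-1 was mapped by ChIP-seq, in which the DNA that comes down with a protein is sequenced, in late embryos of mixed sex taken whole. The single group had 2 biological replicates of strain OP500, which carries the mutation unc-119(tm4063) on chromosome III and the transgene wgIs500, so no conditions were compared. Whole embryos mix all cell types, and the tagged protein comes from a transgene rather than from the gene's own locus. The files analysed here rank 30000 candidate regions, background included, in each replicate and in both pooled, and list the 737 pooled regions that passed the authors' irreproducible discovery rate threshold (IDR peaks). They give no read totals, so depth is unknown, and no expression was measured.

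Of the 3 genes, sms-2 had a very strong IDR peak 816 bp upstream, between it and the neighbouring gene arr-1. The gene sms-3 had a mid-ranked one far upstream beside tRNA genes, and sms-1 had none. The regions that carry these differences are shown here, on the plus strand of the ce11 (WBcel235) genome of RefSeq, 5′ to 3′. The sms-2 IDR peak is the whole peak, chrX:949624-949789, with its summit at base 76. The other 3 are a summit base with 50 bp on each side, so the summit is at base 51. They are the second sms-2 region (chrX:952655-952755), the sms-3 IDR peak (chrIII:1604758-1604858) and the strongest sms-1 candidate (chrIV:11494982-11495082). Capitals mark matches to the motifs searched and, at the left edge of the sms-3 sequence, the 5′ start of a tRNA gene that lies on the minus strand. Matches in these regions all lie on the minus strand, so GAGAGAG reads CTCTCTC and GGGCGG reads CCGCCC.
sms-2 IDR peak: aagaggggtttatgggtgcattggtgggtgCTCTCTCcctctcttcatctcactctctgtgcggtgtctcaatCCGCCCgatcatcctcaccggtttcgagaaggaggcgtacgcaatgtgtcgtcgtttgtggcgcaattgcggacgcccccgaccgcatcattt
sms-2 second region: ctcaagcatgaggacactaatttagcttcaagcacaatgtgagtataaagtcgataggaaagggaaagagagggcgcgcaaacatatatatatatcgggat
sms-3 IDR peak: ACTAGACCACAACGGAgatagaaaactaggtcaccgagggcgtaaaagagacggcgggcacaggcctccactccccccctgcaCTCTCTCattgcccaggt
sms-1 strongest candidate: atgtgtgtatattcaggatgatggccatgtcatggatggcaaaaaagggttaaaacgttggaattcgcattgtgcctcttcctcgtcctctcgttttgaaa

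The gene sms-2 (WBGene00004893, X, 944826 to 948883, minus strand) is the shortest of the family, at 4058 bp with 1 annotated transcript. Its IDR peak had a summit at 949699, in the intergenic interval 816 bp upstream of the start. The authors' signal value, a score against a control whose units are not given, was 100.5 in the pooled list, 14.99 in replicate 1 and 90.3 in replicate 2. The ranks within these lists were 11, 133 and 6, so the region was near the top of each list and higher in replicate 2. The scores of different lists are not on a common scale, and only ranks are set side by side here. The pooled and replicate 2 summits fell on the same base, and the replicate 1 summit was 20 bp away.

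Few IDR peaks were placed so high in both replicates. Of the 737 IDR peaks, 615 had a summit of replicate 1 within 100 bp and 607 had one of each replicate. Among the matched peaks the median rank was 486 in replicate 1 and 370.5 in replicate 2. The rank of the sms-2 peak was reached or bettered by 121 peaks (itself included) in replicate 1, by 6 in replicate 2 and by 4 in both. It was the fourth strongest of the 185 IDR peaks on the X chromosome. The nearest other IDR summit was 43476 bp away, and 4 others lay within 100000 bp.

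The sms-2 peak lies in a divergent intergenic interval. On its other side is arr-1 (WBGene00000195, X, 950782 to 954233, plus strand), which encodes the beta-arrestin of the worm, a regulator of G protein-coupled receptors. The summit is 1083 bp upstream of the arr-1 start, so sms-2 is the nearer gene by 267 bp. A peak between such genes cannot be assigned to either from position alone. Among the 396 IDR summits that lay at most 1000 bp before or 200 bp after their nearest protein-coding start, the median position was 251.5 bp upstream, and 23 lay as far upstream as the sms-2 summit or farther.

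A second region stood out upstream of sms-2 without reaching the IDR list. Its pooled summit at 952705 was 3822 bp upstream of the sms-2 start and 3006 bp from the IDR summit, in an intron of arr-1. The nearest protein-coding start was that of arr-1, 1923 bp away, so the region is named only for the sms-2 window that holds it. Which gene it belongs to was not tested. The signal value was 22.5 in the pooled list (rank 1048), 11.5 in replicate 1 (rank 307) and 17.7 in replicate 2 (rank 1053). The replicate 1 summit, at 952677, fell in a coding exon of arr-1. Of 29263 pooled candidates outside the IDR list, 51 (this one included) ranked as high or higher in replicate 1, and 2 did so in both replicates. The weakest IDR peak had a signal value of 26.41 and the strongest candidate that did not pass had 26.37. The IDR list thus held the 737 highest signal values of the pooled list, and a place in it did not require a high rank in each replicate.

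The remaining candidates at sms-2 were weak. The pooled list held 4 candidates in the window of the gene, of which the other two had ranks 14641, in an intron of sms-2, and 17335, in arr-1. Replicate 1 held 6 candidates, and apart from the regions above they ranked from 9847 to 19158. Replicate 2 held 4, none within the gene span, and the other two ranked 14205 and 28525.

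**Figure D1:**
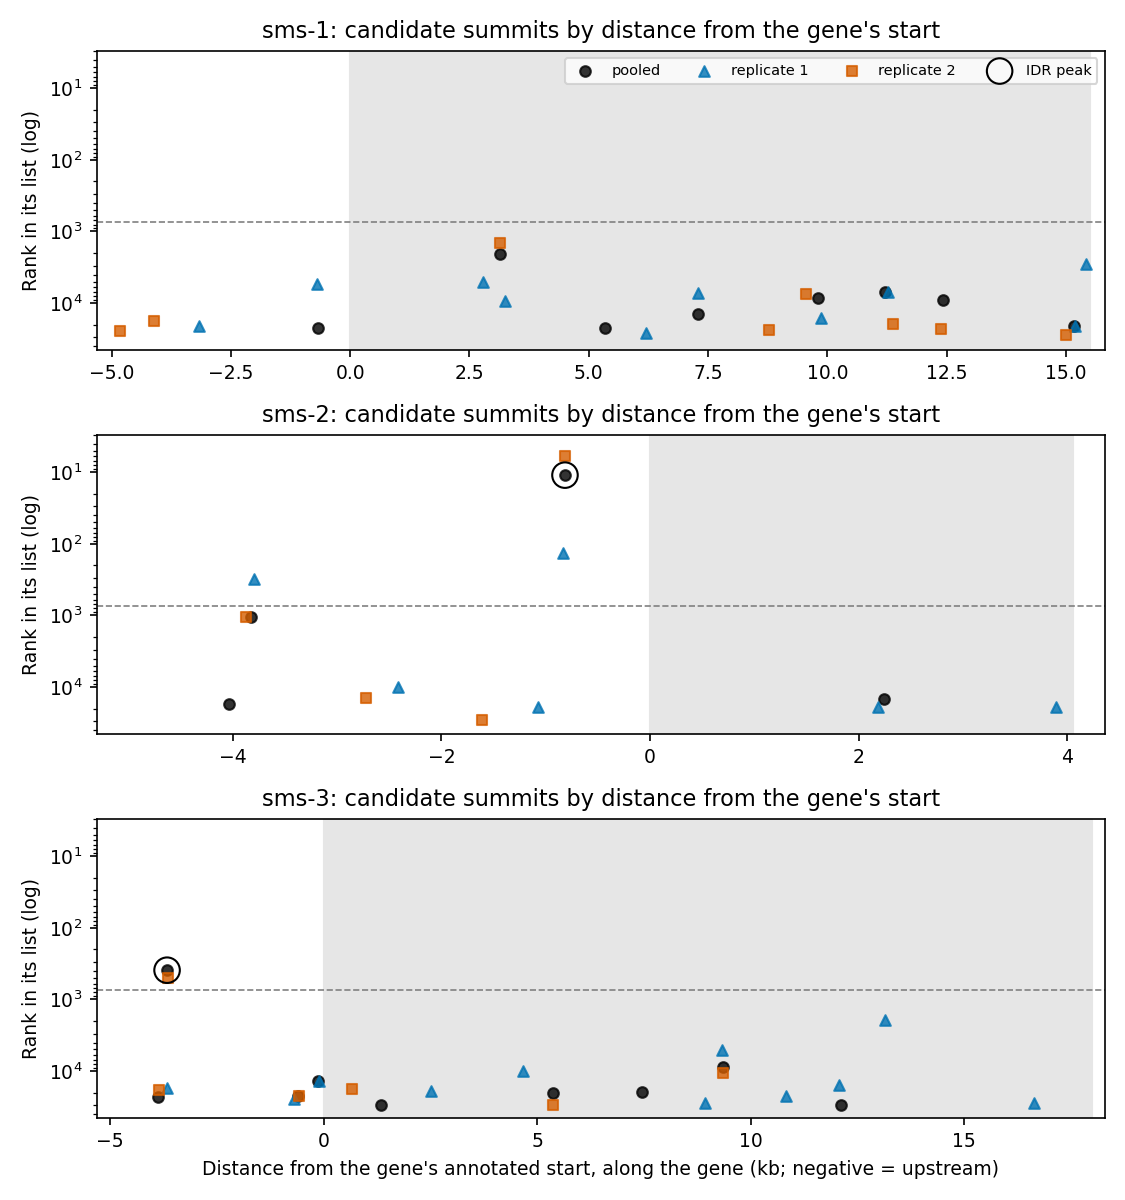
Each panel plots the candidate summits of 1 gene by distance from its annotated start (kb, along the gene, gene span shaded) and by rank in the list they come from (log axis, strongest at the top). Circles, triangles and squares are the pooled, replicate 1 and replicate 2 lists, rings mark IDR peaks and the dashed line is rank 737. At sms-2 the 3 lists meet at 816 to 836 bp upstream at ranks 6 to 133, at sms-3 the replicate 1 point lies far below the others, and at sms-1 no point lies above the line.

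The gene sms-3 (WBGene00004894, III, 1583155 to 1601144, minus strand) spans 17990 bp with 9 annotated transcripts and as many starts. Its window held 1 IDR peak (III, 1604646 to 1604969, summit 1604808), 3664 bp upstream of the gene's first start. The signal value was 35.5 in the pooled list (rank 391), 24.7 in replicate 2 (rank 510) and 3.09 in replicate 1 (rank 17221). The peak was thus strong in replicate 2 and at the level of the weaker candidates in replicate 1. Of the 615 IDR peaks matched in replicate 1, 20 had a lower rank there.

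The sms-3 peak is nearer to 4 other annotated genes than to sms-3. It covers all 72 bp of a tRNA-Glu gene (WBGene00023171, 1604702 to 1604773, minus strand), with the summit 35 bp upstream of that gene's start, and 8 bp of a tRNA-Met gene (WBGene00023170, 1604582 to 1604653, plus strand). It also covers 19 bp of the non-coding gene Y22D7AL.17. The nearest protein-coding start is that of Y22D7AL.6 (WBGene00021245, plus strand), 118 bp downstream of the summit, whose product RefSeq names only by a domain of unknown function. Among all IDR peaks 33 of 737 (4.48%) covered part of a tRNA gene, against 215 of 29263 (0.735%) candidates outside the list. Whether the signal belongs to the tRNA genes, to Y22D7AL.6 or to sms-3 was not tested.

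Within sms-3 and near its own starts, the candidates were weak and mostly not shared. The pooled list held 9 candidates in the window, and all but the IDR peak ranked from 8807 to 29968. The best of these, in an intron 9359 bp into the gene (summit 1591785), had a signal value of 9.97 in the pooled list, 5.09 in replicate 1 (rank 5070) and 7.20 in replicate 2 (rank 10701). Just upstream of the first start, a candidate 121 bp away had pooled rank 13599 and replicate 1 rank 13791, with no replicate 2 summit within 100 bp. The strongest candidate of replicate 1 at the gene, in a coding exon 13144 bp from the start (rank 1908), had no counterpart within 100 bp in the pooled list.

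The gene sms-1 (WBGene00004892, IV, 11482662 to 11498174, minus strand) spans 15513 bp with 4 annotated transcripts. No IDR summit lay in its window. The nearest one upstream was 51719 bp from its start, and a nearer one lay past its 3′ end, at 11474201 (rank 414). The strongest pooled candidate of sms-1 (summit 11495032) had a signal value of 16.5 and rank 2066. It lay in an intron, 3142 bp from the start, where the non-coding genes H21P03.6 and H21P03.7 overlap on opposite strands. Replicate 2 had a summit there with a signal value of 15.2 (rank 1442), whereas replicate 1 had none within 100 bp.

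The significance values gave a coarser order, with top values shared by 639 candidates in the pooled list, 350 in replicate 1 and 946 in replicate 2. They did not separate the sms-2 and sms-3 IDR peaks in the pooled list or in replicate 2. The −log10 of the q-value was at the top value of the list at the sms-2 IDR peak, at 3.11 in the pooled list, 2.37 in replicate 1 and 3.28 in replicate 2. At the second sms-2 region it was 2.15, 2.37 and 2.62 in the same order. In replicate 1 both regions of the sms-2 window were thus among the 350 candidates at the top value. At the sms-3 IDR peak it was 3.11, 0.326 and 3.28, at the top in the pooled list and replicate 2 but not in replicate 1. The sms-1 candidate had 1.15 in the pooled list and 2.51 in replicate 2.

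The other pooled candidates at sms-1 numbered 7 and ranked from 7039 to 22354. In replicate 1 the strongest candidate at the gene lay near its 3′ end, in an exon 15415 bp from the start (signal value 6.04, rank 2807). None of the 8 pooled candidates at sms-1 had a summit of both replicates within 100 bp. The corresponding counts were 2 of 4 at sms-2 and 2 of 9 at sms-3, and over the whole pooled list 15.3% of 30000 candidates had both.

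**Figure D2:**
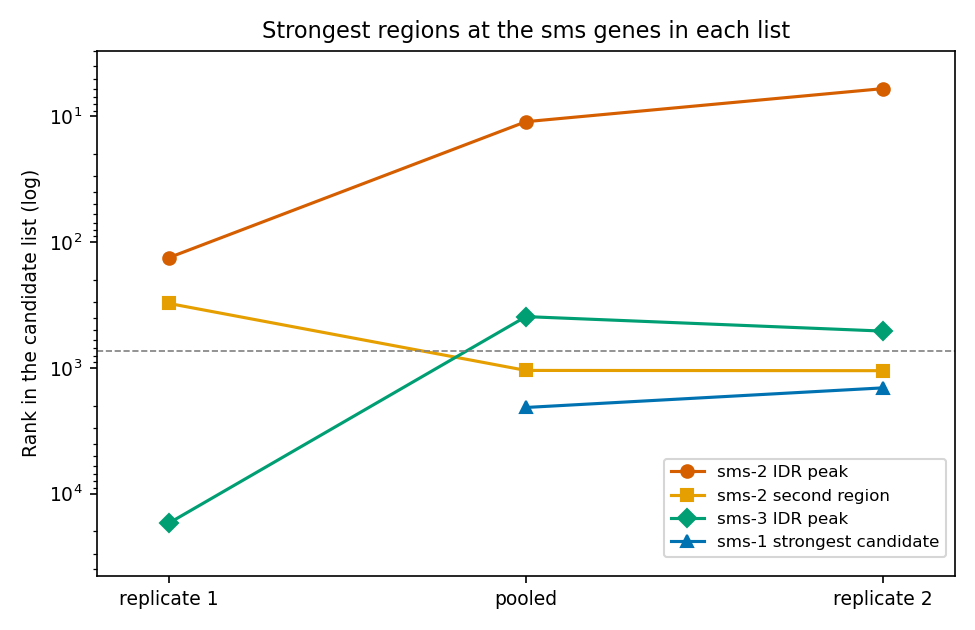
Ranks (log axis, strongest at the top) of the 4 leading regions at the sms genes in the replicate 1, pooled and replicate 2 lists, matched within 100 bp, with the dashed line at rank 737. The sms-2 IDR peak is above the line in all 3 lists (133, 11 and 6), the second sms-2 region only in replicate 1 (307), the sms-3 IDR peak in the pooled list and replicate 2 (391 and 510), and the sms-1 candidate in none, with no replicate 1 match.

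In all, an IDR summit lay in the window of 2 of the 3 genes, where 6.00% of 19973 protein-coding genes (1198) had one in the same kind of window. All 3 windows (20.5 kb for sms-1, 9.1 kb for sms-2 and 23.0 kb for sms-3) were among the 4993 longest, those of at least 8.63 kb, of which 10.5% had an IDR summit. Since the genes were picked with these peaks in view, nothing is read from this count. In the promoter window, from 1000 bp before to 200 bp after an annotated start, 1 of the 3 (sms-2) had an IDR summit, against 2.55% of all genes.

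In the pooled list and in each replicate, the strongest candidate of sms-2 outranked that of sms-3, which outranked that of sms-1. In replicate 1 the sms-3 candidate behind this order was the exonic one and not the IDR peak, and its rank of 1908 was close to the 2807 of sms-1. Among the 737 strongest candidates of replicate 1, the sms-2 window held 2 summits and the other windows 0, where 5.83% of all genes held at least 1. The weaker of these, of rank 307, lay in a coding exon of arr-1. Among the 737 strongest of replicate 2, sms-2 and sms-3 held 1 each and sms-1 held 0, where 5.76% of all genes held at least 1. Each gene was then counted by the strongest candidate in its window, with the named gene itself included and genes that share a peak counted separately. On this count 20 genes (0.100%) matched or exceeded sms-2 in the pooled list, 213 (1.07%) in replicate 1 and 12 (0.0601%) in replicate 2. For sms-3 these shares were 3.16%, 13.8% and 3.98%, and for sms-1 they were 15.1%, 19.4% and 10.8%. Longer windows hold more candidates, and sms-1 and sms-3 have the longer windows.

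Candidates per kb differed less between the genes than their strongest ranks did, and their order depended on whether the 5000 bp upstream were included. With them, sms-2 was highest in each list. Its densities rest on 4 pooled candidates, 6 in replicate 1 and 4 in replicate 2, so each candidate weighs heavily. Candidates with overlapping intervals were counted separately at all 3 genes. The pooled list held 0.390 candidates per kb at sms-1, 0.442 at sms-2 and 0.391 at sms-3, and the median over all genes was 0.285 (quartiles 0.145 and 0.438). In replicate 1 the densities were 0.487, 0.662 and 0.478 per kb, and in replicate 2 they were 0.390, 0.442 and 0.261. In both replicates sms-1 came next and sms-3 last, whereas the pooled values of those genes were nearly equal. Of all genes, 5.09% in replicate 1 and 24.8% in replicate 2 had a higher density than sms-2. Over the gene span alone the pooled order turned, with 0.451 per kb at sms-1, 0.278 at sms-3 and 0.246 at sms-2. The sms-2 span held only 1 pooled candidate, and replicate 2 had 0 candidates there.

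The sms-2 peak held a GC-box and a GAGA repeat, and the sms-3 peak a GAGA repeat. Searched on both strands within 50 bp of a summit were GAGAGAG, the GC-box GGGCGG, the Prospero-family half-site AAGACG or AAGGCG, the homeodomain core TAATTA, the GATA motif TGATAA and the E-box CACGTG. Copies of GAGAGAG can overlap each other, and no matches overlapped in the regions shown. The sms-2 peak held GGGCGG across its summit (949697 to 949702) and GAGAGAG starting 45 bp to the left (949654 to 949660). The sms-3 peak held GAGAGAG starting 33 bp to the right of its summit (1604841 to 1604847). The second sms-2 region and the strongest sms-1 candidate held none of the 6 motifs.

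Over all lists, GAGAGAG occurred at 132 of 737 IDR summits (17.9%) and at 4.24% of 30000 pooled candidates, and GGGCGG at 62 (8.41%) and 3.32%. The half-site, in 12.1% of IDR windows and 7.68% of candidates, was in none of the 4 sms windows. The letters TAATTA (1.09% of IDR windows), TGATAA (0.950%) and CACGTG (2.58%) were also absent from them. Both IDR peaks were rich in GC, with 57.4% at sms-2 and 58.4% at sms-3 within 50 bp of the summit, against 52.2% ± 6.92 (SD, n = 737 IDR peaks) and 40.9% ± 9.19 (SD, n = 30000 pooled candidates). The second sms-2 region had 40.6% and the sms-1 candidate 42.6%. The part of base composition in the motif matches was not tested.

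The genes whose peaks behaved most like the sms-2 peak in the replicates were W06H8.6, bet-2, hil-7, unc-115 and K01G5.10. Likeness was the distance between log10 ranks in replicates 1 and 2, over 438 genes with a promoter IDR peak matched in both. W06H8.6 had ranks 73 and 8 (distance 0.289), and bet-2, which encodes a bromodomain protein and is also on the X, had 170 and 3 (0.319). The linker histone gene hil-7 had ranks 52 and 11 (0.485). The gene unc-115, whose product is an actin-binding protein of the abLIM family that acts in axon guidance, had 103 and 22 (0.575). K01G5.10 had 34 and 4 (0.618) from a peak it shares with tasp-1.

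**Figure D3:**
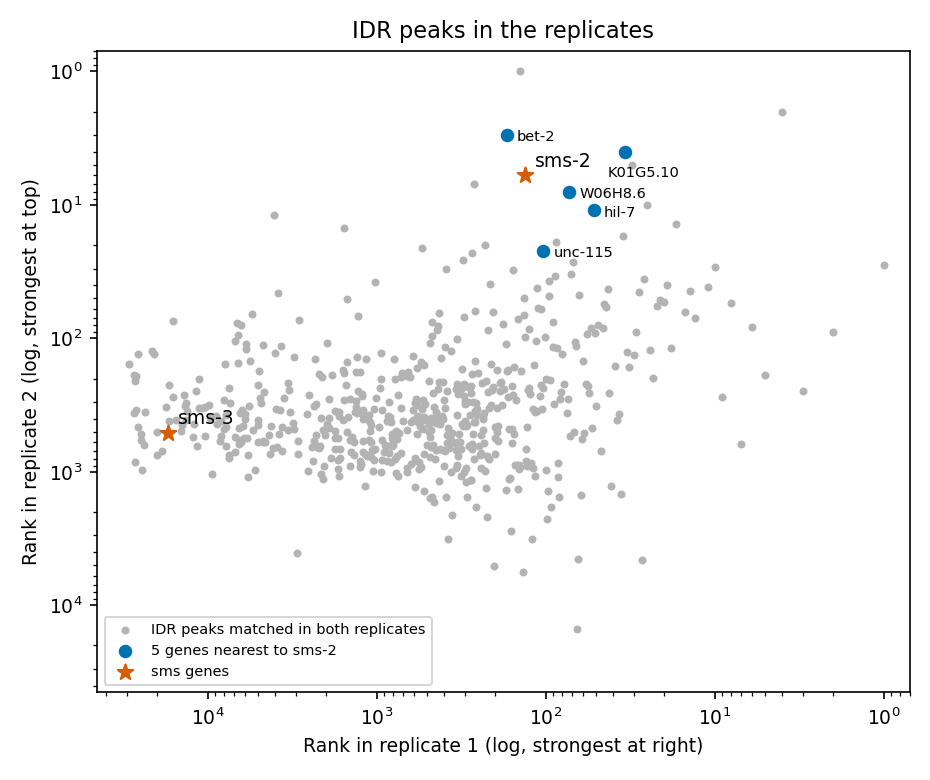
Each grey point is 1 of the 607 IDR peaks matched within 100 bp in both replicates, by its rank in replicate 1 (x axis, log) and in replicate 2 (y axis, log), with the strongest at the upper right. Stars are the sms-2 peak (133 and 6) and the sms-3 peak (17221 and 510). Blue points, at ranks 34 to 170 and 3 to 22, are the 5 genes nearest to sms-2. These were chosen among 438 genes with a promoter IDR peak matched in both replicates. Some grey points outside that choice lie nearer than some blue ones, such as the one at 264 and 7.

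Of the 34 genes around sphingomyelin synthase in lipid metabolism, 3 (8.82%) had an IDR summit in the window. With so few, neither likeness to genes in general nor a difference from them is read from the count. Of 25 sphingolipid genes, 2 (8.0%) had an IDR summit in the gene span or within 5000 bp upstream, as did 1 of 9 genes (11.1%) of phosphatidylcholine supply, against the 6.00% of all genes. In the promoter window the counts were 0 and 0, against 2.55%. The median rank of the strongest pooled candidate was 13760 over the 23 sphingolipid genes that had one and 10235 over the 9 phosphatidylcholine genes, against 7797 over 16770 genes.

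Of these 3 peaks, 1 had its own gene as the nearest protein-coding start. The gene fath-1, which encodes a fatty acid 2-hydroxylase, had a peak 1762 bp upstream with a signal value of 36.2 in the IDR list (rank 377). Its ranks were 1473 in replicate 1 and 389 in replicate 2. The summit of this peak lay in exons of the pseudogene WBGene00077527 and of the non-coding gene linc-171. The peak upstream of spl-1, which encodes the lyase that breaks down sphingosine phosphate, had a signal value of 30.1 (rank 569) and ranks of 240 and 944. It was 2422 bp from the spl-1 start but 280 bp upstream of the ribosomal protein gene rps-24.

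The peak within cept-2, which encodes a choline or ethanolamine phosphotransferase, had a signal value of 39.6 (rank 297), rank 256 in replicate 2 and no replicate 1 summit within 100 bp. It was 535 bp upstream of vha-13, which encodes a subunit of the vacuolar proton pump. The ceramide synthase gene hyl-2 came next, with a strongest pooled rank of 1445. The genes for the first step of sphingolipid synthesis, sptl-1, sptl-2 and sptl-3, had strongest pooled ranks of 20297, 4997 and 13881. For the acid sphingomyelinases, which break sphingomyelin down to ceramide, the rank was 28022 at asm-1 and 10080 at asm-3, and asm-2 had no pooled candidate.

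**Figure D4:**
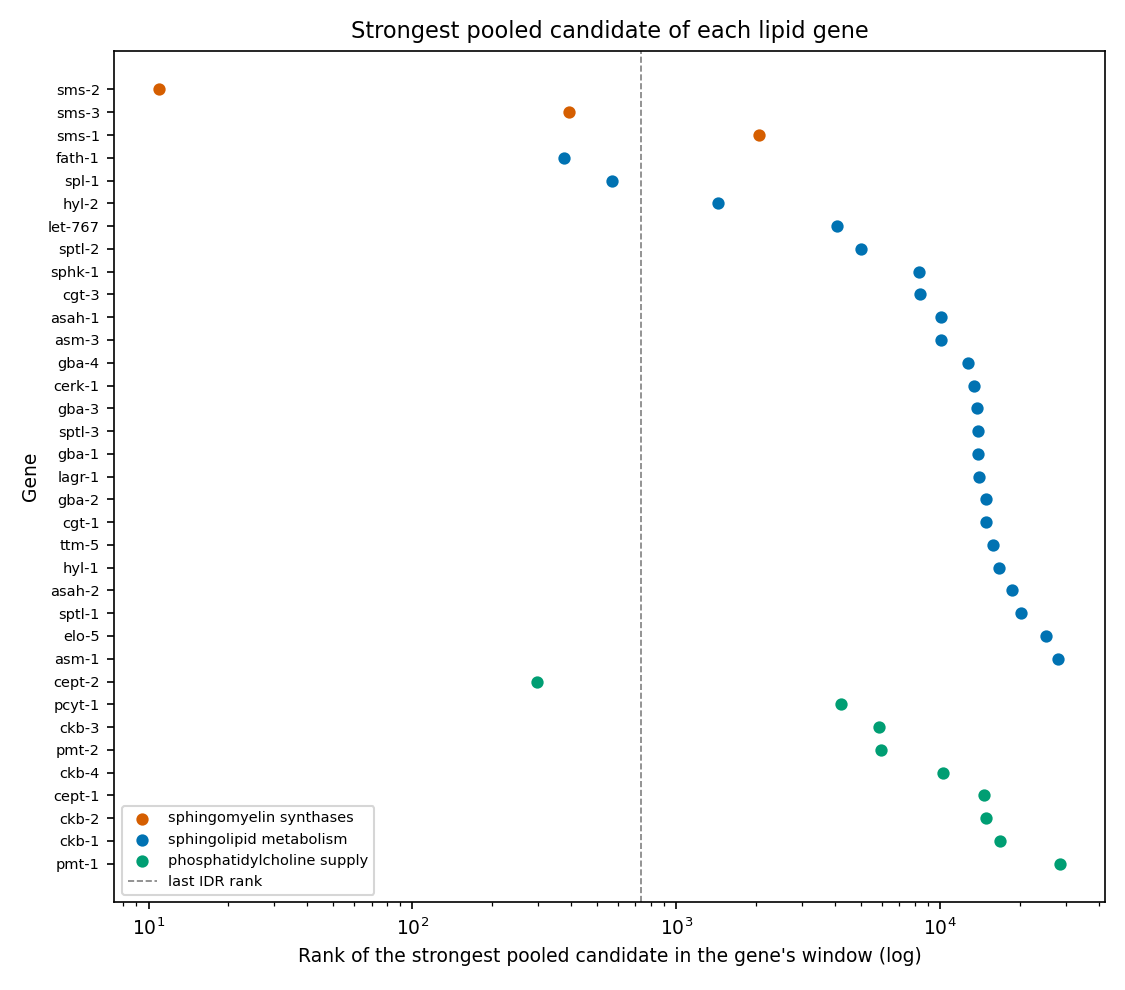
Rank (x axis, log, strongest at the left) of the strongest pooled candidate in the gene span or within 5000 bp upstream, for the sms genes, the sphingolipid genes and the phosphatidylcholine genes that had one. The dashed line is rank 737, and left of it lie sms-2 (11), cept-2 (297), fath-1 (377), sms-3 (391) and spl-1 (569).

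The window of 5000 bp bears on the IDR count of sms-3 more than on those of the other genes. The nearest IDR summit beyond the upstream edge was 44292 bp from the sms-2 start and 17956 bp from the sms-3 start. The IDR summits inside it were at 816 bp and 3664 bp. With the window cut to 2000 bp upstream, or to the promoter window, sms-2 kept its IDR peak and sms-3 had none. The same held with only summits whose nearest start is that of the gene. The second region of the sms-2 window, 3822 bp upstream, falls outside a window of 2000 bp.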

How the data were processed

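Per the labels and the text files deposited with the lists, the authors called candidate regions, background included, on each replicate and on the pooled reads against a control, and an IDR threshold gave the final list. Aligner, caller and IDR threshold are not given in the sources used here. The deposited signal value is a score relative to the control, and the deposited significance is the −log10 of the q-value. Its top value is shared by 639 IDR peaks, so peaks were ranked by score, within a list. The ce11 lists were used, and the ce10 lists were not analysed here.

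Gene models came from Ensembl release 115 (WBcel235). Starts were those of protein-coding transcripts. Summits in different lists were matched within 100 bp, taking the strongest. Intervals and p-values are not given, since the members and lists were chosen with earlier results of these data known and there is 1 group. With 2 replicates, differences between them are given as ranks. Named genes were the sms genes, the neighbours of their peaks, list genes with an IDR summit and the 5 genes nearest to sms-2 in replicate ranks. Other list genes were named after their values were seen. Window counts and matching were tested on simulated data. The software was matplotlib 3.10.9, numpy 2.4.6, pandas 2.3.3 and scipy 1.17.1 under Python 3.11.15.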

Additional observations from a re-analysis of the deposited data

How the results depend on the processing

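The sms-2 count of 1 IDR summit stayed at 1 under the promoter window, the 2000 bp window and the 369 strongest IDR peaks. It also stayed at 1 under interval overlap and nearest-start assignment. With a replicate left out, no IDR list was made. The strongest candidates of the remaining replicate were counted instead, as many as the IDR list holds. At sms-2 these single-replicate counts were 2 in replicate 1 and 1 in replicate 2. The weaker of the replicate 1 summits lay in a coding exon of arr-1. At sms-3 the count of 1 became 0 with the promoter window, the 2000 bp window, the 369 strongest IDR peaks and nearest-start assignment. Overlap of the interval left it at 1. The single-replicate counts at sms-3 were 0 in replicate 1 and 1 in replicate 2. At sms-1 the count was 0 throughout. In single replicates the strongest rank was 6 to 133 at sms-2, 510 to 1908 at sms-3 and 1442 to 2807 at sms-1. Matching within 200 bp gave the strongest sms-1 candidate a summit in 2 replicates in place of 1. Among the strongest 10000 candidates the densities were 0.195 per kb at sms-1, 0.221 at sms-2 and 0.0870 at sms-3. Over the gene span alone they were 0.451, 0.246 and 0.278, so sms-2 went from the highest to the lowest, on 1 candidate.

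The background share was 2.55% in the promoter window. The list motifs found numbered 1 at sms-2 and 0 at sms-3 in 51 bp around the summit, and 2 at sms-3 within 100 bp of it. The sphingolipid count of 2 became 0 in promoter windows. Counted on the strongest candidates of a single replicate in place of IDR summits, it was 2 in replicate 1 and 1 in replicate 2. The phosphatidylcholine count of 1 became 0 in promoter windows, and in the same single-replicate counts it was 0 in replicate 1 and 1 in replicate 2. Over 54 values under alternatives, 33 stayed within the limits set for them and 21 moved. The limit was a fixed fold range for counts and an exact binomial interval for the background share. For ranks and densities it was the SD of the 2 replicate values, which widens as the replicates differ. The tally is therefore not a measure of robustness. The cause of the differences between replicates was not tested. No paired analysis was possible because there is 1 group. Each replicate's list ends at 30000 candidates and depth is unknown, so weak regions may be missing from either list.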
